A study of Homo sapiens with 6 samples.

Results

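Rec-1 cells carrying the first of a pair of guide RNAs against NR4A1 were compared with Rec-1 cells carrying the second, gene by gene, in 1 RNA-seq library for each guide. The genes described are those whose mean over the pair of libraries was 5 FPKM (fragments per length of transcript, scaled to the size of the library) or more. This rule kept 8015 of the 25277 genes in the table. Just inside this limit lay TP53I11 (4.16 FPKM with sgRNA 1 and 5.84 FPKM with sgRNA 2). The nearest genes below the limit were ACP5 (5.76 and 4.24 FPKM) and KMT2B (5.56 and 4.44 FPKM).

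Rec-1 and Jeko are human cell lines established from mantle cell lymphoma, a B-cell cancer in which cyclin D1 (CCND1) is typically driven by a translocation. The study made stable Cas9 lines from each, with a doxycycline-inducible vector that was empty in the controls or held 1 of 2 NR4A1 guides, and extracted total RNA after 48 h of doxycycline. There were 6 libraries: a control, an sgRNA 1 and an sgRNA 2 library for each line. Both Rec-1 libraries compared here therefore share Cas9, the inducible vector, doxycycline and the NR4A1 target, and are labelled as differing in the guide alone. Each group is 1 library of a stable line, so there is no spread between replicates and no test of any difference below. Where the guides cut in NR4A1, and whether the guide of a given number is the same in both lines, is not given in the sources used here.

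NR4A1 (also called NUR77) is an orphan nuclear receptor of the NR4A family, induced early after B-cell receptor or growth factor stimulation, and it binds DNA at the NBRE element as a monomer. Type I interferon signals through the IFNAR1 and IFNAR2 receptor, the kinases JAK1 and TYK2, and a complex of STAT proteins with IRF9, which binds the interferon-stimulated response element (ISRE) in the promoters of antiviral genes. A pair of guides against 1 gene is commonly used so that differences between the guides can be seen apart from what they share.

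The labelled identity was checked first. CCND1, on chromosome 11 (69455924 to 69469242, plus strand, GRCh37), was at 0.696 FPKM in the library labelled Rec-1 sgRNA 1 and 0.592 FPKM in the library labelled Rec-1 sgRNA 2. It was at 495 FPKM in the library labelled Rec-1 control and between 442 and 815 FPKM in the Jeko libraries. CCND3, another D-type cyclin, was at 70.6 and 80.2 FPKM in the pair, against 10.5 to 16.2 FPKM in the other 4 libraries. The pair held B-cell genes (CD79A at 520.0 and 596 FPKM, CD79B at 309 and 296 FPKM). SOX11, a mantle cell lymphoma marker, was at 3.60 and 2.45 FPKM, against 7.11 to 11.1 FPKM in the other 4 libraries. T-cell and NK-cell markers were also present in both: the list summed to 154 FPKM with sgRNA 1 and 170.0 FPKM with sgRNA 2, with CD3D at 66.3 and 95.3 FPKM, while CD8A, GNLY and TRAT1 were listed at 0. Across 10322 protein-coding genes, log2 values of the pair correlated with each other at r = 0.976. The Rec-1 control correlated at 0.805 with sgRNA 1 and 0.811 with sgRNA 2, and at 0.988 with the Jeko control. The Rec-1 control thus stood with the Jeko libraries, and the pair stood apart from all 4. CCND1 near 0 goes against the label of both libraries in the pair as mantle cell lymphoma cells, and which cells they hold was not tested. Rec-1 below means the line as labelled. No library is taken as the matched control of the pair, and values in the other 4 are given as levels, not to say which guide moved a gene.

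FPKM values in the table summed to 905778 for sgRNA 1 and 982657 for sgRNA 2. The entries MIR6723 and MIR4461, which carry microRNA gene names, alone took 21.6% and 28.8% of those sums. Where their reads came from was not tested. The number of fragments sequenced is unknown. Below 0.05 FPKM, between 29.5% and 39.4% of genes had the same ratio between any pair of the other 5 libraries, as whole fragments give. Between the sgRNA 1 and sgRNA 2 libraries only 8 of 695 genes (1.15%) shared the commonest ratio, so the sgRNA 1 values did not show the steps of whole fragments seen in the rest. The part of this in the differences below was not tested.

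Differences are given as log2(FPKM + 1) with sgRNA 1 minus the same with sgRNA 2, so that a positive value is higher with sgRNA 1 and a value of 1 is 2-fold on that scale, which understates the difference of low genes. By this measure 361 of the 8015 genes (4.5%) differed at least 2-fold, 202 of them higher with sgRNA 1 (2.52%) and 159 lower (1.98%). Small RNA genes, mostly small nucleolar RNAs and microRNA precursors, made up 143 of the 361. Of the 259 small RNA genes described, 55.2% differed at least 2-fold, and 94 of those 143 were listed at 0 in 1 library of the pair. Among the 7493 protein-coding genes with a known transcript, 206 (2.75%) differed at least 2-fold, 122 higher (1.63%) and 84 lower (1.12%). Of the 7493, 53.9% were lower with sgRNA 1 by any amount. The middle 90% of protein-coding genes lay between -0.66 and 0.73. In Jeko, 269 of the same 7493 genes (3.59%) differed at least 2-fold between its guides, with 0.881% of all 7493 higher with sgRNA 1 and 2.71% lower.

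The base composition of the transcript moved with the guide difference in Rec-1. Over the 7493 protein-coding genes the difference correlated with GC content at Pearson's r = 0.42 and Spearman's rho = 0.439, across genes that all come from the same pair of libraries. When the genes were ranked by GC content and cut into 10 groups, the group with the lowest GC content (30.7% to 38.2%) had a median difference of -0.20, and 24.9% of its genes were higher with sgRNA 1. In the group with the highest (61.8% to 74.4%) the median was 0.43 and 84.0% were higher. That top group held 65 of the 122 protein-coding genes that were at least 2-fold higher with sgRNA 1, and 5 of the 84 that were lower. Between the Jeko guides, over the same genes, r was -0.045 and the medians of the 10 groups lay between 0.00 and 0.07. A relation to GC content was not confined to the Rec-1 pair, however. Against the Jeko control, r was -0.258 for Jeko sgRNA 1 and -0.204 for Jeko sgRNA 2. The relation was alike among weakly and strongly expressed genes (r = 0.415 over 3746 genes and 0.428 over 3747). Transcript length had little relation to the difference (r = -0.057).

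**Figure D1:**
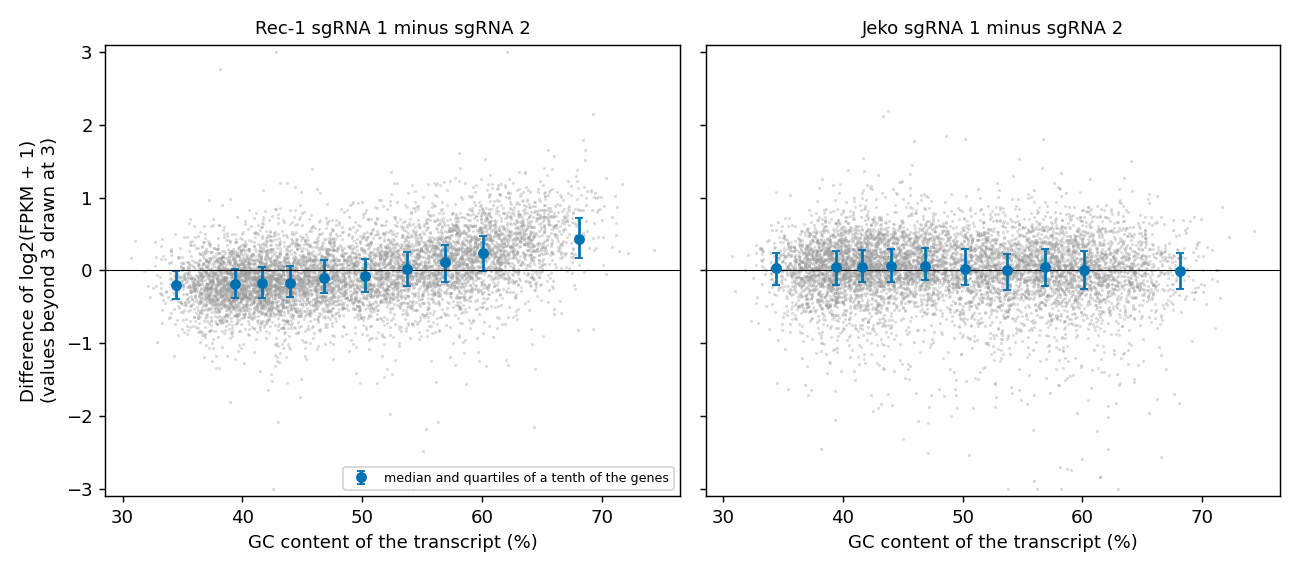
Difference of log2(FPKM + 1), sgRNA 1 minus sgRNA 2, against the GC content of the transcript in percent, for 7493 protein-coding genes in Rec-1 (left) and the same genes in Jeko (right). Blue points with bars are the median and quartiles of 10 groups of genes cut by GC content, which climb from -0.20 to 0.43 in Rec-1 and stay between 0.00 and 0.07 in Jeko.

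A smooth curve of the difference on GC content was subtracted from each protein-coding gene, and both values are given below. The standard deviation of the differences went from 0.45 to 0.40, and the linear relation accounted for 17.7% of their variance. Of the 122 genes higher with sgRNA 1, 35 (28.7%) were still at least 2-fold higher after the adjustment, and 112 of the 122 had a GC content above the median of 48.4%. Of the 84 lower genes, 62 (73.8%) were still at least 2-fold lower. The adjusted counts were 124 in all (1.65%), 38 higher (0.507%) and 86 lower (1.15%), with 27 genes that had been under 2-fold. The direction of the imbalance between higher and lower genes was thus opposite before and after the adjustment. Which step gave rise to the GC relation was not tested.

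NR4A1 itself, on chromosome 12 (52416616 to 52453291, plus strand, GRCh37), was at 27.4 FPKM with sgRNA 1 and 12.7 FPKM with sgRNA 2 in Rec-1. The Rec-1 control was at 11.6 FPKM, and in Jeko the control, sgRNA 1 and sgRNA 2 libraries were at 5.99, 3.89 and 4.44 FPKM. The sgRNA 1 library thus held the highest NR4A1 level of the 6. The difference between the Rec-1 guides was 1.05, or 2.16-fold on the FPKM scale. Its transcript has 60.7% GC, and the GC-adjusted difference was 0.76, below 2-fold. A level of transcript does not measure cutting of the gene or loss of its protein, and the table holds no other readout of editing. The family members NR4A2 (0.197 and 0.203 FPKM) and NR4A3 (0.460 and 0.425 FPKM) were far below the limit of 5 FPKM in both libraries.

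Of 27 genes in a list of the NR4A family and immediate early genes, which are switched on within minutes of stimulation, 13 reached 5 FPKM. Of these, 8 were higher with sgRNA 1 and 5 lower, with a median of 0.01 (adjusted -0.11) beside -0.04 for all protein-coding genes. KLF10, a transcriptional repressor induced by TGF-beta, was lower with sgRNA 1 at 12.4 against 29.6 FPKM (difference -1.19, adjusted -1.08). JUND, an AP-1 subunit, was at 54.5 and 26.6 FPKM (1.01), and with its GC content of 69.9% the adjusted difference was 0.30. DUSP2, a nuclear MAP kinase phosphatase, was at 23.3 and 12.3 FPKM (0.87, adjusted 0.43). EGR1, an immediate early zinc finger factor, was at 7.96 and 5.95 FPKM, and SRF, the serum response factor, was level at 17.6 FPKM in each. The letters AAAGGTCA of the NBRE, searched on both strands in the 250 bases before the start, were in 1 of the 21 genes of the list with a promoter entry (ATF3), in none of 54 interferon genes and none of 18 cholesterol genes, beside 1.29% of all genes.

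**Figure D2:**
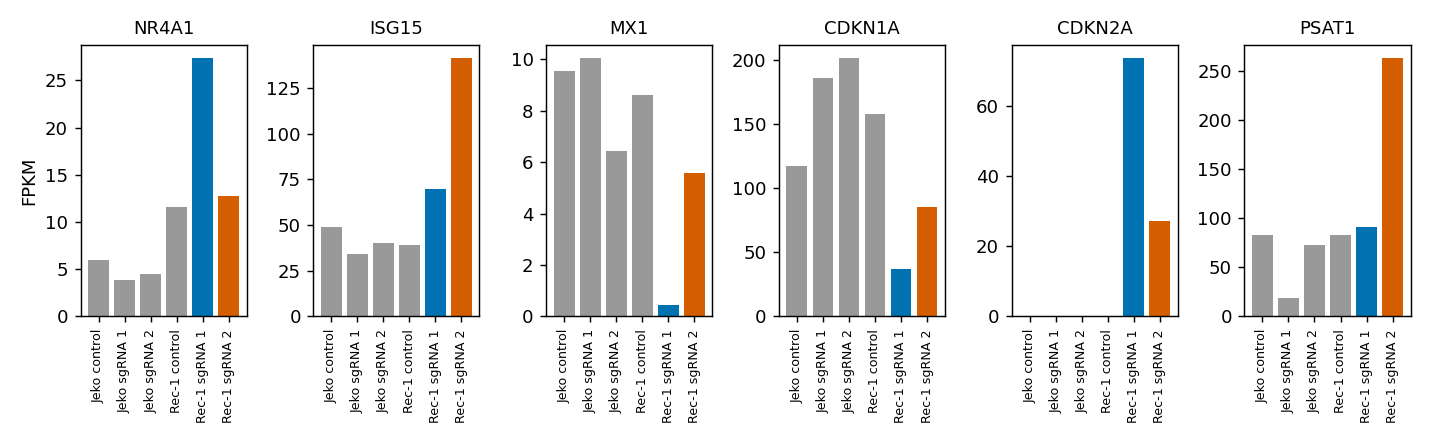
Bars give FPKM on a linear axis in each of the 6 libraries for NR4A1, ISG15, MX1, CDKN1A, CDKN2A and PSAT1, with Rec-1 sgRNA 1 in blue, Rec-1 sgRNA 2 in orange and the other 4 libraries in grey. NR4A1 is highest in the Rec-1 sgRNA 1 library at 27.4 FPKM, MX1 lowest there at 0.431 FPKM, and CDKN2A is near 0 in the 4 grey libraries.

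Interferon response genes were lower with sgRNA 1 than with sgRNA 2 in Rec-1, by the widest median among those between 1 and 5 FPKM. Of 72 listed genes in the table, 32 reached 5 FPKM, 22 of them lower and 10 higher, with a median of -0.33 beside -0.04 for all protein-coding genes. At least 2-fold lower were 5 of the 32 (15.6%, beside 1.12% of protein-coding genes), and 1 was at least 2-fold higher (3.12%, beside 1.63%). Between 1 and 5 FPKM, 15 of 16 listed genes were lower, 8 of them at least 2-fold (beside 1.65% of the 2550 protein-coding genes at that level), and the median was -1.01 beside -0.05. Under 1 FPKM, 21 of 24 were lower, 1 was higher, and CMPK2 and TDRD7 were listed at 0 in both. These levels are set by the mean of the same pair of libraries, so a gene can enter one through a high sgRNA 2 value. MX1 (0.431 and 5.59 FPKM) and IFI6 (2.78 and 9.93 FPKM) entered theirs that way. All protein-coding genes were cut by the same mean. The genes of this list had a median GC content of 50.7%, and the adjusted median of the 32 was -0.31, with 26 lower and 6 higher. Between the Jeko guides, the same 32 genes had a median of -0.05, with 19 lower and 13 higher. In Jeko 4 of the 32 were at least 2-fold lower (beside 2.71% of protein-coding genes) and 0 higher, a count close to that in Rec-1. They were IRF7, IRF9, IFITM1 and ISG20, none of them among the 5 in Rec-1. Few were shared over all protein-coding genes as well: 7.28% of those past 2-fold in Rec-1 were also past 2-fold in Jeko.

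The ISRE letters are shown in the promoters of 4 interferon genes that were lower with sgRNA 1 than with sgRNA 2 and were chosen for that. They are from RefSeq on GRCh38.p14, written 5′ to 3′ along the gene with 20 bases on either side, and capitals mark GAAA, any 2 bases and GAAA again, or the reverse complement. ISG15 is at chr1:1013364-1013419 (plus strand), with 2 overlapping matches. IFI6 is at chr1:27672256-27672368 (minus strand), with 3 matches. MX1 is at chr21:41431834-41431883 and IFIT3 at chr10:89327821-89327904 (both plus strand), with 1 and 2 matches on the opposite strand.
ISG15: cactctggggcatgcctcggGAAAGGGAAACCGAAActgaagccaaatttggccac
IFI6: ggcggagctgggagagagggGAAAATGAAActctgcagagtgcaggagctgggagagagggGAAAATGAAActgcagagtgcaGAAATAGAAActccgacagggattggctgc
MX1: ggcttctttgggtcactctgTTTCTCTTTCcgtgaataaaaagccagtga
IFIT3: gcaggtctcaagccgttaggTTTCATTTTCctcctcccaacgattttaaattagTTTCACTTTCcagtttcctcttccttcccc

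In the 250 bases before the start these letters, on either strand, were in 29 of the 54 interferon genes with a RefSeq promoter (53.7%), beside 3.71% of all 27305 genes with one. Of those 29 genes at any level, 27 were lower with sgRNA 1 and 2 were higher. Only 9 of the 29 reached 5 FPKM. Below that level the list as a whole was nearly all lower, in 15 of 16 genes between 1 and 5 FPKM and 21 of 24 under 1 FPKM. The count of 27 therefore does not set genes with the letters apart. Nor did the medians among the genes of 5 FPKM or more, which were -0.34 for the 9 with the letters and -0.33 for the 14 without. A match describes these letters alone and is not evidence of binding.

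Among the antiviral effectors, ISG15, a ubiquitin-like protein attached to other proteins, was the most abundant gene of those at least 2-fold lower. ISG15 (chromosome 1, 936518 to 949920, plus strand, GRCh37) was at 69.8 FPKM with sgRNA 1 and 142 FPKM with sgRNA 2, and between 33.9 and 48.7 FPKM in the other 4 libraries. The difference was -1.01, and -1.46 after adjustment for its GC content of 64.2%. Both Rec-1 guide libraries therefore held more ISG15 than the rest, and the sgRNA 2 library held the most.

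MX1, a dynamin-like GTPase that blocks viral replication, showed another order. MX1 (chromosome 21, 42791947 to 42841998, plus strand, GRCh37) was at 0.431 FPKM with sgRNA 1 and 5.59 FPKM with sgRNA 2, and between 6.45 and 10.1 FPKM in the other 4 libraries. Its mean was below 5 FPKM, and the difference was -2.20. Its level in the sgRNA 1 library was the lowest of the 6.

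IFIT3, which binds other IFIT proteins that recognise viral RNA, was at 0.301 and 2.05 FPKM (-1.23), with 1.497 FPKM in the Rec-1 control and 2.13 to 4.15 FPKM in Jeko. IFI6, a membrane protein that restrains flaviviruses and cell death, was at 2.78 FPKM with sgRNA 1 and 9.93 FPKM with sgRNA 2 (-1.53, adjusted -1.65). The other 4 libraries lay between 1.32 and 3.22 FPKM for IFI6. OAS3, which makes the 2-5A signal for RNase L, was at 1.80 and 6.23 FPKM, and EPSTI1 was at 2.14 and 7.68 FPKM. OAS2, of the same enzyme family, was at 13.98 and 24.7 FPKM, and under 1 FPKM in the other 4 libraries. IFITM2, which blocks viral entry, was level at 344 and 340.3 FPKM. Of the 14 antiviral effectors at 5 FPKM or more, 11 were lower with sgRNA 1, with a median of -0.32.

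The pathway upstream was divided. All 8 receptor and signalling genes reached 5 FPKM, 4 higher and 4 lower with sgRNA 1, with a median of -0.11. Of the 8, 1 was at least 2-fold lower (beside 1.12% of protein-coding genes). After adjustment 3 were higher and 5 lower, 1 of them at least 2-fold (beside 1.15%), with a median of -0.12. JAK1 was level at 18.1 FPKM in each library, and STAT2 was at 16.8 and 13.9 FPKM. IRF9, which binds DNA with STAT proteins and is itself interferon-stimulated, was at 9.77 FPKM with sgRNA 1 and 18.3 FPKM with sgRNA 2. IRF7, the factor that amplifies interferon production, was at 6.23 and 9.80 FPKM.

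Among other interferon targets, NMI, which binds STAT proteins, was at 13.4 and 35.5 FPKM (-1.34, adjusted -1.18). NMI lay between 27.3 and 37.2 FPKM in the other 4 libraries. PARP9, an ADP-ribosyltransferase acting with the ubiquitin ligase DTX3L, was at 15.1 and 31.5 FPKM (-1.01, adjusted -0.89), and its relative PARP14 at 1.66 and 5.88 FPKM. PML, the scaffold of nuclear bodies, went the other way at 16.2 and 8.98 FPKM (0.78, adjusted 0.59). The sensor TLR9, which detects unmethylated DNA in endosomes and is strongly expressed by B cells, was at 12.9 and 4.80 FPKM (1.26). TLR9 has 62.3% GC and its adjusted difference was 0.90.

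**Figure D3:**
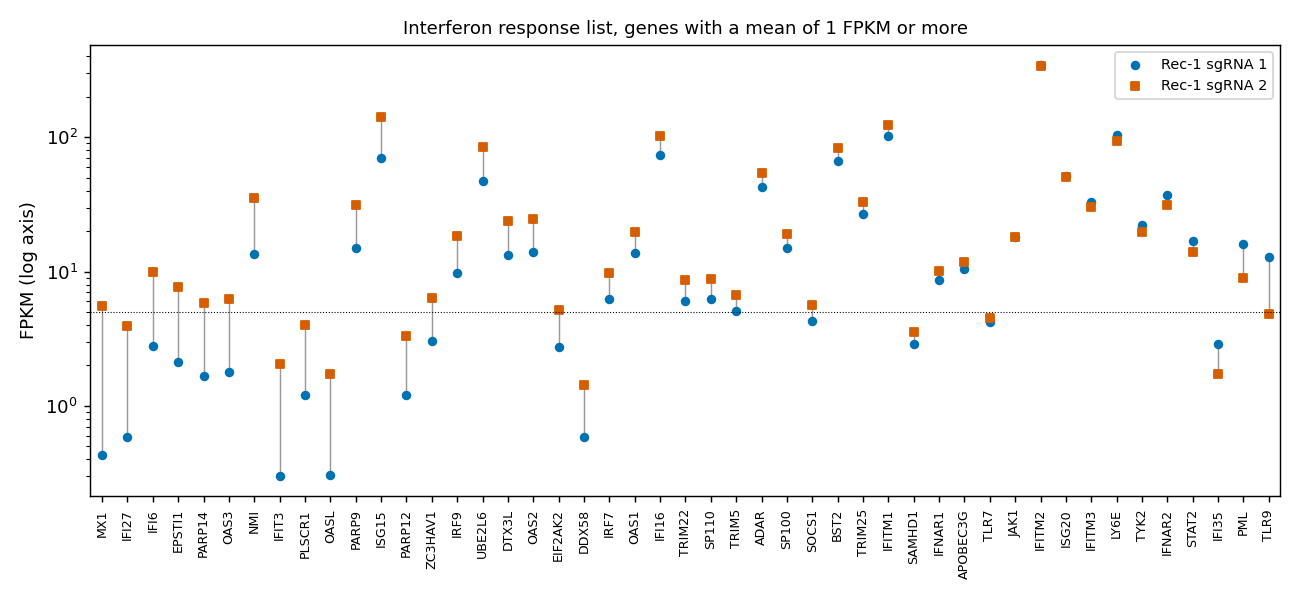
FPKM on a log axis of interferon response genes with a mean of 1 FPKM or more in the Rec-1 sgRNA 1 library (blue circles) and the Rec-1 sgRNA 2 library (orange squares), joined by a line and ordered by their difference, with the limit of 5 FPKM dotted. The widest gaps are on the left, from MX1 at 0.431 against 5.59 FPKM, and TLR9 on the far right is reversed at 12.9 against 4.80 FPKM.

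The related list of interferon-gamma and MHC class I genes had 10 members at 5 FPKM or more, 7 lower and 3 higher with sgRNA 1, with a median of -0.21 and none 2-fold. PSME2, a subunit of the proteasome activator, was at 80.3 and 149 FPKM (-0.89), and IRF1, the factor that drives MHC class I genes, at 10.4 and 18.9 FPKM (-0.81). B2M, the light chain of MHC class I, was level at 2769 and 2806 FPKM. Of 6 MHC class II genes, 5 were higher with sgRNA 1, with a median of 0.25. CD74, the invariant chain, was at 1533 and 892 FPKM (0.78), and CIITA, the master activator of the class, at 6.86 and 5.54 FPKM.

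Cholesterol synthesis was the list with the largest median difference. Its genes were nearly all higher with sgRNA 1: of 23 at 5 FPKM or more, 22 were higher and 1, PMVK, was lower (29.2 against 33.8 FPKM). The median was 0.63, and 0.65 after adjustment, when 22 were still higher. At least 2-fold higher were 3 of the 23 (beside 1.63% of protein-coding genes), and 4 after adjustment (beside 0.507%). Their median GC content was 49.6%, close to that of all protein-coding genes. The median between the Jeko guides was 0.18 over the same genes, with 17 higher, 5 of them at least 2-fold (beside 0.881% of protein-coding genes), and 6 lower.

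MVD, which makes isopentenyl diphosphate in the mevalonate pathway, was at 132 FPKM with sgRNA 1 and 41.6 FPKM with sgRNA 2 (1.65, adjusted 1.14). MVD lay between 4.18 and 8.75 FPKM in the other 4 libraries, below both. DHCR7, which catalyses the last step to cholesterol, was at 68.0 and 21.6 FPKM (1.61, adjusted 1.43), and between 1.55 and 4.57 FPKM elsewhere. LSS, which closes the sterol rings, was at 47.3 and 19.7 FPKM (1.23, adjusted 1.04). HMGCS1, which makes HMG-CoA, was at 86.6 and 43.5 FPKM (0.98), and with a low GC content of 39.0% its adjusted difference was 1.13. INSIG1, which holds the sterol sensor in the endoplasmic reticulum, was at 113 and 67.3 FPKM.

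**Figure D4:**
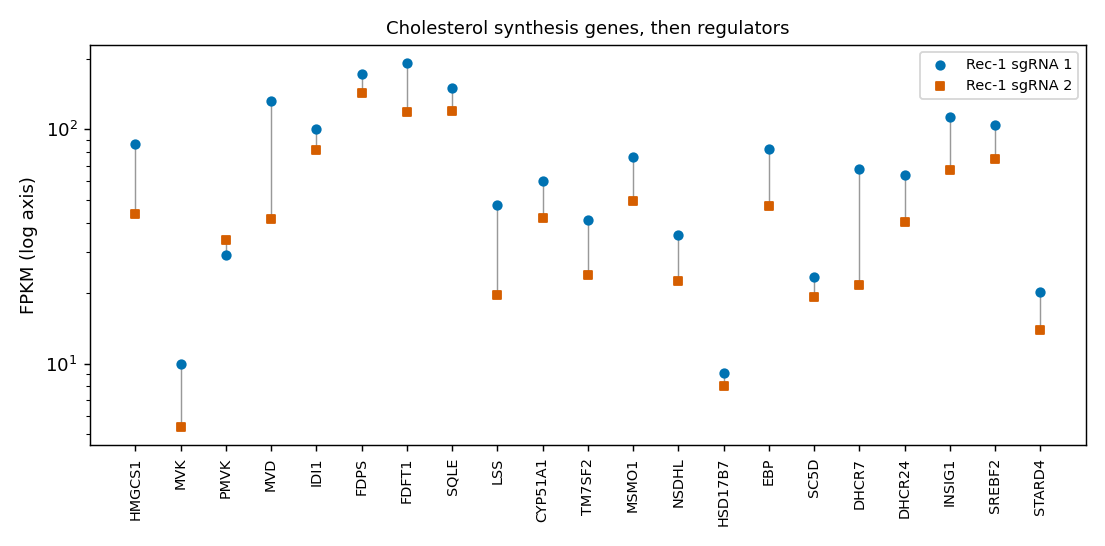
FPKM on a log axis of cholesterol synthesis genes in pathway order, followed by regulators, in the Rec-1 sgRNA 1 library (blue circles) and the Rec-1 sgRNA 2 library (orange squares). The blue circle is the higher in nearly every pair, most of all for MVD (132 against 41.6 FPKM), and PMVK is the one gene with the reverse order.

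Of 26 glycolysis and hypoxia response genes, 18 were higher with sgRNA 1, with a median of 0.19 (adjusted 0.23). At least 2-fold higher were 5 of them (beside 1.63% of protein-coding genes). After adjustment 1 was (beside 0.507%). ALDOC, the aldolase found in brain and induced by hypoxia, was at 141 and 61.3 FPKM (1.19, adjusted 1.09) and was that member. ALDOA, the main glycolytic aldolase, was at 1580.3 and 773 FPKM (1.03, adjusted 0.75), and PFKL, the liver-type phosphofructokinase, at 64.2 and 30.04 FPKM. CA9, a carbonic anhydrase at the cell surface that is a standard hypoxia marker, was at 11.9 and 4.42 FPKM and listed at 0 in the other 4 libraries. The program was not uniform. Of 17 glycolysis genes, 14 were higher with sgRNA 1 and 3 lower (median 0.28). Of 9 hypoxia targets, 4 were higher and 5 lower (median -0.07). VEGFA (22.1 and 34.0 FPKM) and LDHA (383 and 502 FPKM) were lower with sgRNA 1. Between the Jeko guides the 26 genes had a median of 0.185, with 16 higher and 9 lower.

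Cell cycle genes as a whole had a median of -0.01 over 82 of 92 listed genes, close to the -0.04 of all protein-coding genes, with 40 higher and 42 lower. Of 31 DNA replication genes, 18 were lower with sgRNA 1, a share near the 53.9% of all protein-coding genes (median -0.15, adjusted -0.10). All 4 E2F and retinoblastoma genes were lower (median -0.37). Of 31 mitotic genes, 20 were higher (median 0.13), and 24 after adjustment (median 0.20). In Jeko, replication genes lay the other way, 28 of the 31 higher with sgRNA 1 (median 0.51).

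Past 2-fold were 5 of the 82 cell cycle genes (beside 2.75% of protein-coding genes), 3 of them inhibitors. CDKN2A, which encodes p16 and p14ARF (chromosome 9, 21967751 to 21995300, minus strand, GRCh37), was at 73.7 FPKM with sgRNA 1 and 27.2 FPKM with sgRNA 2 (1.41, adjusted 1.22). CDKN2A was at 0.163 FPKM or less in the other 4 libraries. CDKN2C, which encodes p18, was at 42.4 and 19.7 FPKM (1.07, adjusted 1.17), with 17.2 to 24.98 FPKM in the rest. CDKN1A, which encodes p21 and is a direct p53 target, was at 36.7 FPKM with sgRNA 1 and 85.2 FPKM with sgRNA 2 (-1.19, adjusted -1.35), and above 117 FPKM in each of the other 4. The list of p53 targets had no common direction, with a median of 0.07 over 16 genes (adjusted -0.06): MDM2 was at 15.2 and 21.1 FPKM, and SESN1 at 22.8 and 12.4 FPKM.

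Among replication genes PCNA, the sliding clamp, was at 144 and 283 FPKM (-0.97), and MCM3, a subunit of the replicative helicase, at 35.2 and 66.8 FPKM (-0.91). Among mitotic genes NDC80, a kinetochore protein, was at 21.0 and 46.1 FPKM (-1.10, adjusted -0.96). CDC25B, the phosphatase that starts entry into mitosis, was at 46.0 and 22.4 FPKM (1.00, adjusted 0.78). The mitotic kinases AURKB (83.4 and 49.3 FPKM) and PLK1 (77.0 and 47.1 FPKM) were also higher with sgRNA 1.

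Most genes of the unfolded protein and ATF4 response list were lower with sgRNA 1 in both lines, to unlike degrees. The list holds endoplasmic reticulum chaperones and regulators as well as targets of ATF4, the factor of amino acid shortage and endoplasmic reticulum stress. Of 37 unfolded protein and ATF4 response genes, 29 were lower in Rec-1, 2 of them at least 2-fold (beside 1.12% of protein-coding genes), with a median of -0.21. After adjustment 30 were lower in Rec-1, 4 of them at least 2-fold (beside 1.15%), with a median of -0.27. In Jeko all 37 were lower with sgRNA 1, 26 at least 2-fold (beside 2.71% of protein-coding genes), with a median of -1.36. Of the 16 ATF4 targets among them, 12 were lower in Rec-1 (median -0.40, adjusted -0.44) and all 16 in Jeko (median -1.33). PSAT1, an enzyme of serine synthesis, was at 91.7 and 264 FPKM in Rec-1 (-1.52, adjusted -1.39) and at 18.5 and 72.8 FPKM in Jeko. ASNS, asparagine synthetase, was at 117 and 292 FPKM in Rec-1 (-1.31, adjusted -1.19) and at 98.9 and 182 FPKM in Jeko. CHAC1, which degrades glutathione, was at 68.1 and 119 FPKM in Rec-1 and at 6.02 and 31.5 FPKM in Jeko. TRIB3, a pseudokinase that restrains ATF4, was reversed between the lines, at 273 and 179 FPKM in Rec-1 and 34.9 and 256 FPKM in Jeko. The chaperone HSPA5 was at 410 and 494 FPKM in Rec-1, and at 104 and 333 FPKM in Jeko.

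The promoters of ASNS and CHAC1 hold the letters TGATGNAA of the element bound by ATF4 with C/EBP proteins, shown because both genes were lower with sgRNA 1 in each line. They are from RefSeq on GRCh38.p14, 5′ to 3′ along the gene, with the match in capitals: ASNS at chr7:97872449-97872496 (minus strand) and CHAC1 at chr15:40953242-40953289 (plus strand, match on the opposite strand).
ASNS: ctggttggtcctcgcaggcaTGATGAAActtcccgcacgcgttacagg
CHAC1: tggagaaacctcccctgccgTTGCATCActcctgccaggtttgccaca
The letters were in 3 of 34 genes of the list with a promoter entry (8.82%; the other one was HERPUD1), beside 3.89% of all genes, searched on both strands of the 250 bases before the start.

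Some groups of subunits leaned one way. Proteasome subunits were lower with sgRNA 1 in 24 of 31 (median -0.23), beside 53.9% of all protein-coding genes. After adjustment 21 of the 31 were lower (median -0.20). PSMD7, a regulatory particle subunit, was at 70.7 and 149 FPKM (-1.06, adjusted -0.97). DNA break sensing and repair genes were lower in 14 of 17 (median -0.31). Their GC content was low at a median of 42.5%, and the adjusted median was -0.22. CHEK1, the checkpoint kinase, was at 15.2 and 23.4 FPKM, and PARP1, which senses DNA breaks, at 138 and 194 FPKM. NF-kB and B-cell receptor targets had a median of 0.19 over 13 genes that was -0.09 after adjustment. NFKBIA, which encodes the inhibitor that holds NF-kB in the cytoplasm, was at 12.8 and 22.5 FPKM (-0.77). Oxidative phosphorylation (44 genes, median -0.07), cytosolic ribosomal proteins (76 genes, 0.08) and heat shock proteins (15 genes, 0.02) had medians near that of all protein-coding genes (-0.04).

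B-cell markers had a median of 0.05 over 12 genes, or -0.16 after adjustment, with 2 members at least 2-fold lower with sgRNA 1 (beside 1.12% of protein-coding genes). MS4A1, which encodes CD20, was at 26.4 and 68.5 FPKM (-1.34, adjusted -1.18), and the reverse in Jeko, at 132 FPKM with sgRNA 1 and 67.8 FPKM with sgRNA 2. FCRLA, an Fc receptor-like protein of germinal centre B cells, was at 111 and 298 FPKM (-1.41, adjusted -1.38). FCRLA was lower with sgRNA 1 in Jeko as well, at 173 and 570 FPKM. CD79B (309 and 296 FPKM) was close, while CD37 was at 104 and 67.3 FPKM. Of the markers of other cell types, 5 of 12 T-cell and NK-cell genes and 1 of 10 myeloid genes (CD68, 12.3 and 13.0 FPKM) reached 5 FPKM. The myeloid list summed to 13.4 and 15.6 FPKM, with CSF1R, FCN1, MPO, S100A8 and S100A9 listed at 0. None of these 6 genes was past 2-fold, and their part in the differences above was not tested.

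**Figure D5:**
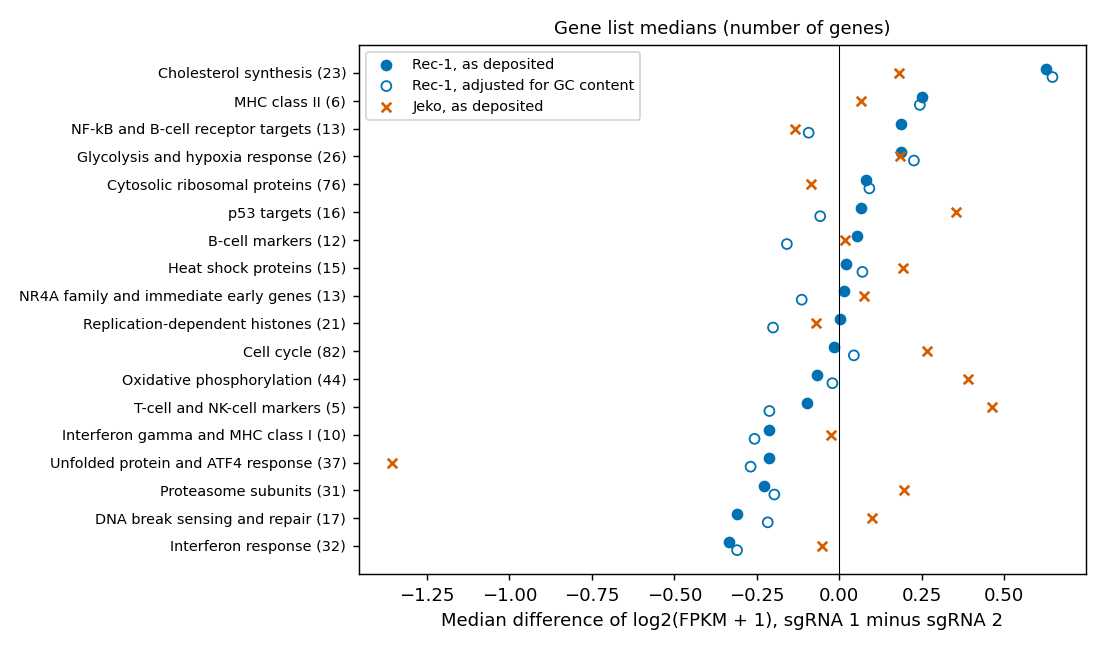
Median difference of log2(FPKM + 1), sgRNA 1 minus sgRNA 2, for each gene list with its number of genes, in Rec-1 as deposited (filled circles), in Rec-1 adjusted for GC content (open circles) and in Jeko as deposited (crosses). In Rec-1 cholesterol synthesis lies at the top at 0.63 and the interferon response at the bottom at -0.33, and the Jeko cross of the unfolded protein and ATF4 response lies at -1.36.

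The single protein-coding genes with the largest differences included pairs of overlapping genes whose reads the counting could divide. No such pair is given here for H3F3A, which encodes histone H3.3. H3F3A was listed at 565 FPKM with sgRNA 1 and at 0 in each of the other 5 libraries, although dividing and resting cells use this histone alike. How its reads were counted in those 5 libraries was not tested, and the zeros are not taken as its expression level. C18orf32 was at 0.541 FPKM with sgRNA 1 and 14.6 FPKM with sgRNA 2, and its read-through gene RPL17-C18orf32 at 12.6 and 1.00 FPKM. Summed, that pair was at 13.1 and 15.6 FPKM, a difference of -0.23. Likewise PLSCR3, a phospholipid scramblase gene, was at 13.9 and 0.0219 FPKM and its read-through TMEM256-PLSCR3 at 2.28 and 13.5 FPKM, which sum to 16.2 and 13.5 FPKM (0.25). COMMD3-BMI1, another read-through gene, was at 4.10 and 20.5 FPKM.

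Apart from those, the most different gene was DHRS2, a dehydrogenase/reductase of the SDR family, on chromosome 14 (24099324 to 24114848, plus strand, GRCh37). DHRS2 was at 0.213 FPKM with sgRNA 1 and 18.8 FPKM with sgRNA 2 (-4.03, adjusted -4.09). It was at 0.573 FPKM or less in the other 4 libraries. SMIM14, a small membrane protein, was at 3.89 and 16.0 FPKM in Rec-1 (-1.80) and 17.6 and 43.8 FPKM in Jeko. NUDT3, a diphosphoinositol polyphosphate phosphatase, was at 2.37 and 10.2 FPKM (-1.74), and CDC42EP3, an effector of the small GTPase CDC42, at 4.55 and 16.4 FPKM (-1.65).

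At the other end, the zinc finger gene ZNF775 was at 13.7 FPKM with sgRNA 1 and 2.31 FPKM with sgRNA 2 (2.15, adjusted 1.47), and ZNF579 at 12.2 and 3.47 FPKM (1.57, adjusted 1.04). H1FX, a linker histone, was at 178 and 55.9 FPKM (1.65), and with 68.6% GC its adjusted difference was 0.999, just under 2-fold. RPRML was at 29.0 and 7.66 FPKM (1.79, adjusted 1.15). POLR2I, a subunit of RNA polymerase II, was at 39.5 and 13.0 FPKM (1.54, adjusted 1.26). ABHD17A, a depalmitoylating enzyme, was at 43.7 and 14.7 FPKM (1.52) and was under 2-fold once adjusted (0.87). All of these 6 had a GC content above 60%.

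Of 22 listed replication-dependent histone genes, 12 were higher with sgRNA 1 and 10 lower, with a median of 0.01, and 4 were at least 2-fold lower (beside 1.98% of all genes described). All such genes in the table were then divided by the histone they encode, a split chosen after the values were seen. All 11 histone H4 genes at 5 FPKM or more were at least 2-fold lower with sgRNA 1, with a median of -1.36 and a range of -2.48 to -1.12, and their FPKM summed to 263 and 834. HIST1H4E was at 24.7 and 116 FPKM, HIST1H4D at 6.02 and 38.2 FPKM and HIST1H4C at 77.7 and 201 FPKM. Of 12 H2A genes, 11 were lower (median -0.55), while 10 of 13 H2B genes were higher (median 0.22). Of 8 H3 genes 5 were higher and 3 lower (median 0.04), and of 4 H1 genes 2 were higher and 2 lower (median -0.11). Between the Jeko guides the H4 median was -0.20. Histone genes are near-identical copies, and most of their mRNA has no poly(A) tail, so their values depend on RNA selection and on how reads of several origins were counted. Neither was tested.

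The guide difference was set beside that in Jeko, whose libraries are others. Over the 7493 protein-coding genes the differences of the lines correlated at r = 0.22. At least 2-fold in both lines were 15 protein-coding genes, and 13 of the 15 had the same direction. They were 7.28% of those past 2-fold in Rec-1, beside 3.59% of all 7493 past 2-fold in Jeko. They were also 5.58% of those past 2-fold in Jeko, beside 2.75% of all 7493 in Rec-1. Lower with sgRNA 1 in both were SMIM14, TXNIP, PSAT1, FCRLA, PLXNA1, TSC22D3, PEA15, GPR18 and REEP5. Higher in both were DHCR7, PFN1, GBE1 and PLAC8. SH2D3C and KCNK12 were opposite. TXNIP, a thioredoxin inhibitor and glucose-responsive gene, was at 66.4 and 195 FPKM in Rec-1 and at 31.5 and 104 FPKM in Jeko. Over all 8015 genes, of which 4.77% differed at least 2-fold in Jeko, 71 were past 2-fold in both lines, 47 in the same direction and 24 in the opposite one. Only 15 of these 71 were the protein-coding genes above.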

How the data were processed

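The series holds 1 table of FPKM values per gene for 6 RNA-seq libraries (TruSeq), which the authors deposited; reads had been aligned with TopHat to hg19, per the submitters' processing notes. The program that gave the FPKM values, its gene annotation and its use of strand are not given in the sources used here. Every library is 1 group, and 0 other columns of values were present. In the table, 28 genes are named as calendar dates and were given no gene name here. Genes with a mean of 5 FPKM or more in the Rec-1 sgRNA 1 and sgRNA 2 columns were kept. Differences are of log2(FPKM + 1), and 2-fold is a difference of 1.

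Symbols were matched to GENCODE v44lift37 (7394 by symbol and 462 by a RefSeq synonym, 159 unmatched), and GC content and length came from the canonical transcript of 93.5% of the genes. A lowess curve (fraction 0.3) on GC content was subtracted. It was tried on simulated data with a straight trend on GC content and changed genes drawn without regard to GC content. That setting cannot show whether the adjustment also removes real differences that go with GC content. Work was done in Python 3.11.15 with pandas 2.3.3, scipy 1.17.1 and statsmodels 0.14.6. The genes named are NR4A1, NR4A2, NR4A3, ISG15, IFIT3 and MX1, the 12 highest and 12 lowest protein-coding genes, the 3 highest and 3 lowest others, interferon genes past 2-fold and the leading members of each of the 19 lists. Others were named after their values were seen. Values of a few genes are not reported here, although they stay in the counts. Members and lists were chosen with earlier results of these data known. No test was made, since a library has no replicate. Other pseudocounts, expression limits, fold limits, scalings and adjustments were tried.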

Additional observations from a re-analysis of the deposited data

Results flagged for a closer look

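A pair of small nucleolar RNA genes had guide differences in opposite directions in the cell lines. SNORD58A was at 1696 FPKM with sgRNA 1 and listed at 0 with sgRNA 2 in Rec-1 (10.73), while in Jeko it was listed at 0 with sgRNA 1 and at 466 FPKM with sgRNA 2 (-8.87). SNORD54 was at 867 FPKM with sgRNA 1 and listed at 0 with sgRNA 2 in Rec-1 (9.76), while in Jeko it was listed at 0 with sgRNA 1 and at 302 FPKM with sgRNA 2 (-8.24). With 1 library a group, the difference between the lines was not tested, and for such short genes a few fragments give values of this size.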

How the results depend on the processing

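With 1 library for each guide, nothing below has an error, and the depth is unknown. No paired analysis was possible because each group holds 1 library and no result comes from a test. The 361 genes past 2-fold were 223 with a pseudocount of 5 FPKM, 213 with a mean of 20 FPKM or more and 206 among protein-coding genes alone. Those 206 became 190 adjusted for length, 124 adjusted for GC content and 125 for both. The 361 over all genes described were 1400 at 1.5-fold and 135 at 3-fold. The 122 protein-coding genes higher with sgRNA 1 were 38 with a pseudocount of 5 FPKM, 56 with a mean of 20 FPKM or more, 38 adjusted for GC content and 46 for GC content and length. The 84 lower ones were 40 with a pseudocount of 5 FPKM and 43 with a mean of 20 FPKM or more. The NR4A1 difference of 1.05 was 0.87 with a pseudocount of 5 FPKM, 0.76 adjusted for GC content and 0.78 for GC content and length. Of 92 named genes, 13 were no longer past 2-fold with GC adjustment and 1, HMGCS1, newly was. Of 19 list medians, 3 moved by more than 0.2 with it: NF-kB and B-cell receptor targets to -0.09, B-cell markers to -0.16 and histones to -0.20. The balance of higher and lower protein-coding genes turned with a pseudocount of 5 FPKM and with GC adjustment, alone or with length. No named gene past 2-fold changed sign. Centring, rescaling to equal protein-coding sums, a mean of 1 FPKM and a pseudocount of 0.1 FPKM kept the counts within 1.5 times.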

Other observations

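The other small RNA genes with the largest Rec-1 differences were also listed at 0 in 1 library of the pair. MIR3064 was at 909 FPKM with sgRNA 1 and 0 with sgRNA 2. MIR3687 was at 0 and 1298 FPKM, MIR7113 at 0 and 909 FPKM, and SNORD44 at 0 and 649 FPKM. In Jeko, MIR3687 and MIR7113 were likewise listed at 0 with sgRNA 1 and above 0 with sgRNA 2, at 404 and 566 FPKM. Among protein-coding genes, FAM72C was listed at 0 in the Rec-1 sgRNA 1 library alone.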
